A study of Canis lupus familiaris with 34 samples.

Results

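Matricellular proteins are secreted into the extracellular matrix, where they regulate how cells and matrix interact more than they build it. The 10 genes described here encode periostin (POSTN), SPARC, tenascin C (TNC), tenascin X (TNXB), thrombospondins 1, 2 and 4 (THBS1, THBS2, THBS4) and the CCN proteins CCN1, CCN2 and CCN5. Their features were found by gene symbol among 23768 counted features, and all 10 passed the filter of at least 100 counts over all dogs. RNA was sequenced from the mitral valves of 34 Cavalier King Charles Spaniels of about 10 years of age, all privately owned and collected at elective euthanasia. The 10y-noCHF group held 19 dogs (10 females, 9 males) without congestive heart failure (CHF), though nearly all of them had myxomatous mitral valve disease (MMVD), severe in some, so it is not a group of healthy valves. The 10y-MMVD-CHF group held 15 dogs (6 females, 9 males) in which MMVD had led to CHF. The labels name no allele or agent, and disease stage, exact age and medication were not paired with the dogs here.

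Matricellular genes are expressed strongly when connective tissue is formed, loaded or repaired, and are low in many resting adult tissues. In the mitral valve most of the matrix is made by valve interstitial cells, the fibroblast-like cells of the leaflet, and myxomatous disease disturbs the order of their collagen. Periostin, SPARC, the tenascins and thrombospondin 2 influence the assembly of collagen fibrils, thrombospondin 1 can activate latent TGFβ, and CCN1 and CCN2 are known as rapidly induced targets of the mechanosensitive YAP/TAZ coactivators.

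The features differed in what was counted. TNC (chr11:69487403-69552684, minus strand, canFam4) and THBS2 (chr1:56956445-56983636, minus strand) were counted on the exons of canine RefSeq genes, 7261 and 4084 bases long. The other 8 genes were counted over the whole genomic span of an aligned human transcript, introns and UTRs included. Their spans ran from 3023 bases for CCN1 (chr6:62986436-62989458, minus strand) and 3298 bases for CCN2 (chr1:25137683-25140980, minus strand) to 56256 bases for TNXB (chr12:1587331-1643586, minus strand). POSTN lay at chr25:3231089-3272727 (plus strand), SPARC at chr4:58530192-58543928 (plus), THBS1 at chr30:7055814-7073605 (plus), THBS4 at chr3:27060342-27102318 (minus) and CCN5 at chr24:32785878-32798357 (plus). The span of SPARC began inside the RefSeq gene, which covers chr4:58519992-58542658, so reads over the start of the gene were not counted. Beside its exon feature, TNC also had a span feature, and the exon counts came to 94.1% ± 1.69 of the span counts (SD, n = 34 dogs). For THBS2 the share was 80.5% ± 3.41.

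The libraries held between 46185256 and 82361245 counts per dog. Valve interstitial cell markers were high in every library, at a summed 11513 to 29861 counts per 1000000 counts of the library (CPM) over 9 genes, which fits the labelled tissue. The 19 cardiomyocyte markers summed to between 56.4 and 27004 CPM in the 10y-noCHF dogs and between 79.3 and 55443 CPM in the 10y-MMVD-CHF dogs, and only MYL2 was at 0, in 2 dogs. Heart muscle RNA therefore differed widely between the samples of both groups. A pair of 10y-MMVD-CHF dogs stood apart from the other libraries: CAV614 had the most red blood cell RNA of all (47.6 CPM over 4 marker genes, against at most 9.35 CPM in the 10y-noCHF dogs) and CAV1047 had the highest cardiomyocyte marker mean. Results that rest on these dogs are given with and without them.

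All 10 genes were detected in every dog. Per kilobase of counted length, SPARC was the highest, with a median of 264 reads per kilobase per 1000000 counts (RPKM) and a range of 157 to 462 over the 34 dogs. POSTN followed with a median of 162 RPKM, CCN2 with 134, CCN1 with 71.2 and THBS1 with 30.9. THBS2 had 28.3 RPKM, TNC 22.2, TNXB 10.7 and THBS4 9.44, and CCN5 was the lowest with a median of 1.39 RPKM and a range of 0.397 to 4.26. Of the 9 neighbouring pairs in this order, THBS1 and THBS2 were not separated beyond their spread within dogs (mean log2 ratio 0.16 ± 0.65 SD, adjusted p = 0.187, sign-flip permutation test, two-sided), nor were TNXB and THBS4 (0.10 ± 0.64, adjusted p = 0.354). The closest pair that did differ was POSTN above CCN2 (log2 ratio 0.20 ± 0.45, adjusted p = 0.0163), and POSTN was the higher of them in 20 of the 34 dogs. The order depends on the counted length: over the span features with their introns the median of TNC was 1.84 RPKM and that of THBS2 5.84, which placed both below THBS4. Every member other than TNC and THBS2 was counted over its whole span, so its place in the order carries the same limit. The comparison of THBS1 with THBS2 set a span beside an exon feature. Over the spans of both genes, their medians were 30.9 and 5.84 RPKM.

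The members differed more between dogs than most features did. On the log2 CPM scale with the means of the 4 groups of status and sex removed, the SD between dogs was 0.82 for CCN5, 0.61 for THBS2, 0.58 for TNC, 0.52 for THBS4 and 0.51 for THBS1. It was 0.43 for POSTN, 0.40 for CCN2, 0.38 for CCN1, 0.36 for SPARC and 0.32 for TNXB, while the median over 16171 features with a mean of at least 1 CPM was 0.27. Between 59.9% and 92.5% of those features had a smaller SD than the member. CCN5 spanned the widest range, 10.7-fold between the lowest and the highest dog, and CCN1 the narrowest, 2.62-fold. The dog CAV748, a 10y-noCHF female, was the lowest of all 34 in POSTN, SPARC, THBS1 and CCN2 and among the lowest 3 in 7 of the 10 genes. Its cardiomyocyte marker mean was 8.86 log2 units, against a median of 6.41 in its status. The highest such mean in that status was 9.43, in CAV865, which had the highest CCN2 value of all 34 dogs.

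**Figure D1:**
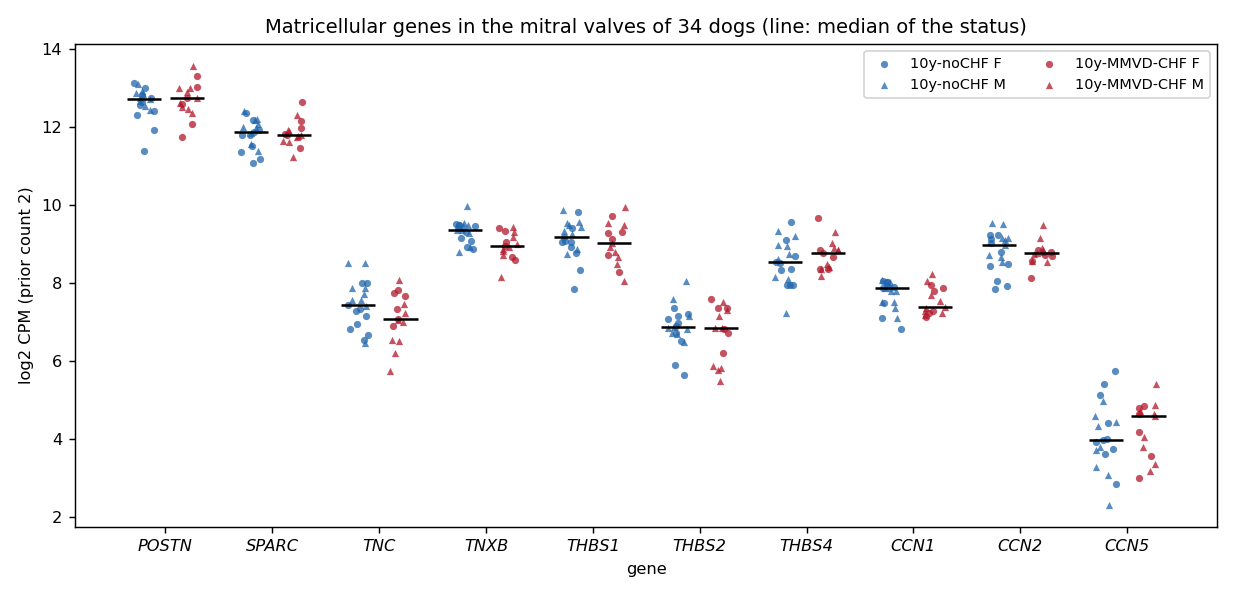
Each point is a dog, plotted as log2 CPM (prior count 2) for each gene, with 10y-noCHF in blue and 10y-MMVD-CHF in red, females as circles and males as triangles, and a line at the median of each status. The clouds overlap for all 10 genes, and TNXB shows the clearest offset, with medians of 660 and 497 CPM.

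The main comparison asked whether these genes differ between valves of dogs with and without CHF. No matricellular gene passed the test (0 of 10 at a false discovery rate, FDR, under 0.1, edgeR quasi-likelihood test with sex in the model), against 23 of all 19568 features tested, or 0.118%. DESeq2 called 0 of the 10 as well. At an unadjusted p under 0.05, 1 of the 10 was found, TNXB, which was lower with CHF. The same threshold took 6.31% of all features, and 3.51% of all features were lower at it. The fitted values were lower with CHF for 6 members and higher for 4. Their median was −0.10 on the log2 scale, and that of all features was 0.01. In whole-valve RNA, fewer cells of a type and less RNA per cell cannot be told apart, which holds for every difference below.

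Among the collagen-associated proteins, POSTN, which binds collagen and promotes its cross-linking, was close to equal in the groups. Its lowest, median and highest values were 2688, 6703 and 8912 CPM in the 10y-noCHF dogs and 3446, 6831 and 12088 CPM in the 10y-MMVD-CHF dogs. The groups overlapped almost wholly, and the 2 highest dogs of all had CHF. The log2 fold change with CHF was 0.08 (95% interval −0.20 to 0.37, FDR 0.962 by edgeR). SPARC, a collagen chaperone of the matrix, measured 2158, 3730 and 5422 CPM without CHF and 2394, 3566 and 6343 CPM with it. Its log2 fold change was 0.01 (−0.24 to 0.27, FDR 0.993). For both genes the interval leaves out a change of 0.5 log2 units in either direction.

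TNC, a tenascin of developing and injured tissue, had a lower fitted value with CHF and did not pass the test. It ranged from 87.7 CPM over a median of 172 to 367 CPM in the 10y-noCHF dogs, and from 53.8 over 135 to 272 CPM in the 10y-MMVD-CHF dogs. The 2 lowest dogs of all had CHF and the 2 highest did not, and 10 of the 15 dogs with CHF lay under the median of the others. The log2 fold change was −0.36 (95% interval −0.77 to 0.06, p = 0.0931, FDR 0.838, edgeR).

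TNXB, the tenascin of collagen-rich connective tissue whose loss causes a form of Ehlers-Danlos syndrome, showed the smallest p of the members. The 10y-noCHF dogs had 446, 660 and 996 CPM as lowest, median and highest values, and the 10y-MMVD-CHF dogs had 286, 497 and 689 CPM. Of the 15 dogs with CHF, 13 lay under the 10y-noCHF median, and 8 of the 19 dogs without CHF lay above every dog with it, though the groups overlapped. The log2 fold change was −0.34 (SE 0.11, 95% interval −0.56 to −0.12, p = 0.00315), and it did not pass correction (FDR 0.428 by edgeR, 0.204 by DESeq2). Permuting the CHF labels within each sex gave an unadjusted p of 0.00359 for a difference of −0.35 in mean log2 CPM. Leaving out any 1 of the 34 dogs kept the fold change between −0.39 and −0.29. Without CAV614 and CAV1047 together it was smaller, at −0.27 (p = 0.00971, FDR 0.476, edgeR). With all dogs, limma voom gave −0.28 (FDR 0.377).

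The reads counted for TNXB were unevenly placed along the gene. The aligned human TNXA, in humans a truncated copy of TNXB, was counted at chr12:1587331-1592025 on the same strand, wholly within the TNXB span at its 3′ end. This interval makes up 4695 of the 56256 bases and held 53.2% of the TNXB counts. A read there was counted for both features, so TNXA is described as a part of TNXB and its reads cannot be assigned to a separate gene. In the TNXA interval the dogs without CHF had 236, 364 and 497 CPM as lowest, median and highest values and those with CHF had 178, 261 and 341 CPM. All 15 dogs with CHF lay under the 10y-noCHF median, and 11 of the 19 dogs without CHF lay above every dog with it. The log2 fold change of the interval was −0.48 (SE 0.11, 95% interval −0.70 to −0.26, FDR 0.0879, edgeR), which passed the threshold of 0.1. The call was narrow: it held without each of 11 of the 34 dogs and was lost without any of the other 23 (FDR 0.0319 to 0.209), as well as without CAV614 and CAV1047 together (FDR 0.147).

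The TNXB reads outside that interval did not pass the test. They ranged from 166 CPM over a median of 292 to 575 CPM in the 10y-noCHF dogs and from 89.6 over 250 to 358 CPM in the 10y-MMVD-CHF dogs. The log2 fold change was −0.20 (SE 0.15, 95% interval −0.50 to 0.10, p = 0.183, FDR 0.879, edgeR). The share of TNXB counts inside the interval was 54.8% ± 6.99 without CHF (SD, n = 19) and 50.8% ± 7.54 with it (n = 15). The log2 ratio of inside to outside counts differed by −0.25 between the statuses (p = 0.105, permutation within sex), and by −0.29 without CAV614 and CAV1047 (p = 0.0496). In CAV614 the interval took 68.7% of the counts, and this dog had the fewest TNXB reads outside it.

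A gene on the opposite strand overlaps the same end. The 3′ end of CYP21A2, a steroid hydroxylase gene (chr12:1584768-1587792, plus strand), reaches 462 bases into the TNXB span, and the counting used no strand, so reads from the overlap could come from either gene. CYP21A2 was lower with CHF as well, with a log2 fold change of −0.56 (95% interval −0.82 to −0.30, FDR 0.0905, edgeR). The human transcripts of CYP21A2 and of the pseudogene CYP21A1P, aligned to chr12:1584819-1587625 and sharing 295 bases with TNXB, had the same log2 fold change to 2 decimals. How much of either difference comes from the shared bases was not tested.

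**Figure D2:**
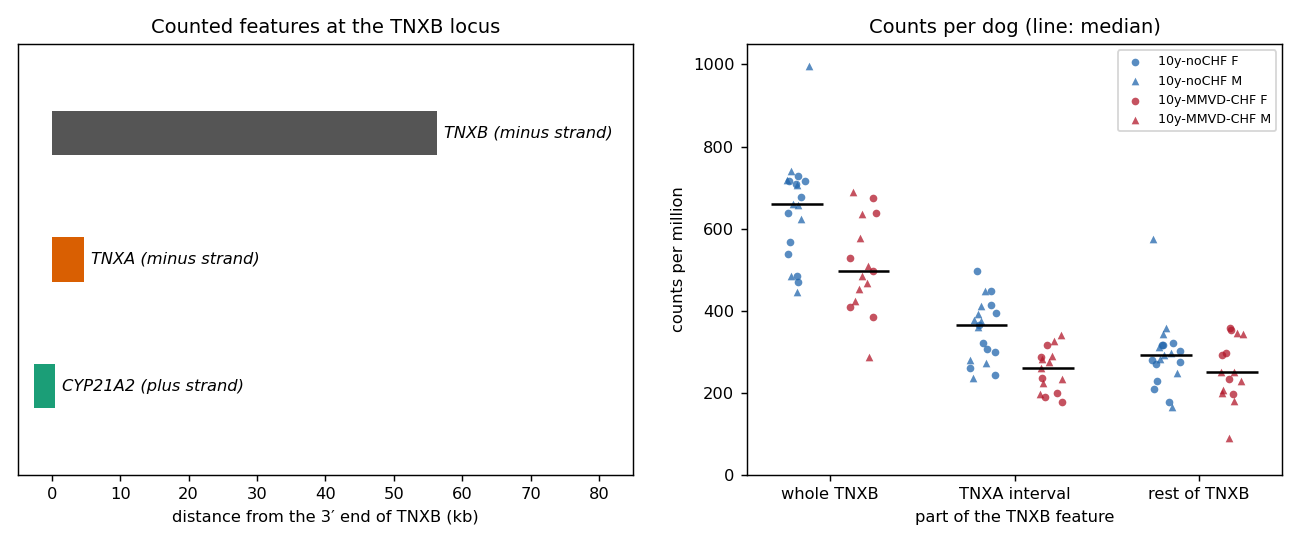
The left panel maps the counted features against the distance in kb from the 3′ end of TNXB, and the right panel shows CPM per dog for the whole of TNXB, the TNXA interval and the rest, with status by colour, sex by shape and a line at the median. The 4695 bases of TNXA hold 53.2% of the counts, and the medians with CHF lie lower in each part, 261 against 364 CPM inside the interval and 250 against 292 CPM outside.

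None of the thrombospondins passed the test. THBS1, an inhibitor of angiogenesis and activator of TGFβ, had 231, 581 and 932 CPM as lowest, median and highest values without CHF and 264, 519 and 986 CPM with it, a log2 fold change of −0.10 (95% interval −0.44 to 0.24, FDR 0.962, edgeR). THBS2, a regulator of collagen fibril shape, had 49.96, 117 and 265 CPM without CHF and 45.1, 114 and 193 CPM with it (−0.11, −0.52 to 0.31, FDR 0.966). THBS4, which is abundant in tendon and in stressed heart muscle, had 151, 369 and 757 CPM without CHF and 288, 438 and 819 CPM with it. Its log2 fold change was 0.14 (−0.21 to 0.49, FDR 0.945), and 6 of the 19 dogs without CHF lay under every dog with it. The highest THBS4 value belonged to CAV1876, a female with CHF, and leaving it out brought the THBS4 fold change to 0.04 on the log2 scale.

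The CCN proteins did not pass either. CCN1 had 114, 234 and 272 CPM as lowest, median and highest values without CHF and 139, 166 and 298 CPM with it. Its medians lay further apart than its log2 fold change of −0.14 (95% interval −0.40 to 0.11, FDR 0.908, edgeR), and 11 of the 15 dogs with CHF lay under the median of the others while the highest of all, CAV614, also had CHF. CCN2, also known as connective tissue growth factor, had 229, 502 and 743 CPM without CHF and 282, 437 and 717 CPM with it (−0.13, −0.39 to 0.14, FDR 0.931). CCN5, which lacks the C-terminal domain of the other CCN proteins, had 4.95, 15.6 and 53.2 CPM without CHF and 7.97, 24.2 and 42.3 CPM with it. Its fold change was 0.13, and its interval was the widest, from −0.42 to 0.69 (FDR 0.968). That interval still holds a difference of 0.5 log2 units in favour of the dogs with CHF.

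**Figure D3:**
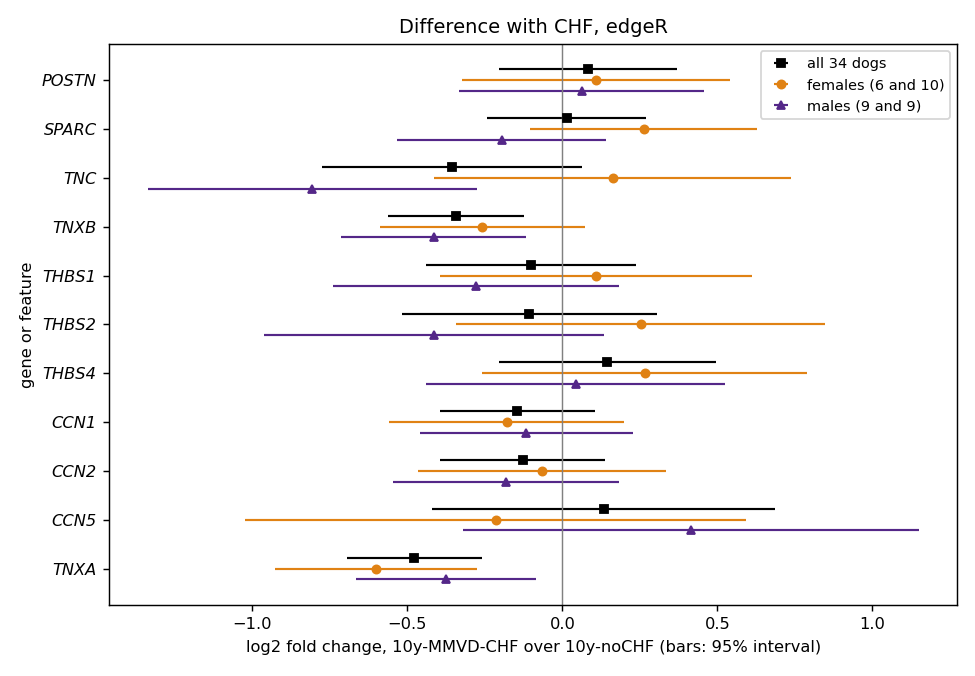
Points are log2 fold changes of 10y-MMVD-CHF over 10y-noCHF from edgeR with 95% intervals, for all 34 dogs (black squares), females (orange circles) and males (purple triangles). For all dogs, the intervals of TNXB and TNXA lie below 0 and those of the other 9 genes include it, and the female and male values of TNC lie on opposite sides of 0.

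Whether the CHF difference itself differed between females and males was tested with an interaction term. No feature of the whole table passed at an FDR under 0.1 (0% of those tested), and 1 of the 10 members, TNC, had an unadjusted p under 0.05, which 6.02% of all features had. DESeq2 called 3 features in the table and 0 of the members. In males TNC had a lowest, median and highest value of 87.7, 212 and 367 CPM without CHF and 53.8, 127 and 272 CPM with it. In females the values were 92.3, 149 and 258 CPM without CHF and 119, 182 and 226 CPM with it. The log2 fold change with CHF was −0.81 in males (95% interval −1.34 to −0.28, FDR 0.835, edgeR) and 0.16 in females (−0.41 to 0.74, FDR 0.923), and neither passed correction. The difference between the sexes was −0.97 (SE 0.38, 95% interval −1.75 to −0.19, p = 0.0162, FDR 0.815, edgeR), and it failed the correction. THBS2 (−0.67, −1.47 to 0.14) and SPARC (−0.46, −0.96 to 0.04) had the same sign with intervals that include 0, and CCN5 had the opposite one (0.63, −0.47 to 1.73). Without CAV614 and CAV1047, 3 members had an unadjusted p under 0.05, as did 9.28% of all features: TNC (−1.002, p = 0.0156), SPARC (−0.56, p = 0.03) and THBS1 (−0.66, p = 0.0424, against −0.39 with all dogs). None of them passed correction (FDR 0.523, edgeR).

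Between the sexes, 0 of the 10 members were called, against 0.143% of all features. CCN2 was the only member with an unadjusted p under 0.05, a threshold that 2.98% of all features passed. Its male over female value was 0.32 log2 units (95% interval 0.06 to 0.59, p = 0.0187) and did not pass correction in edgeR. Among dogs without CHF its median was 552 CPM in males and 401 CPM in females, and among dogs with CHF it was 447 and 417 CPM.

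The spread between dogs was compared between the statuses as the mean absolute deviation from the group median on the log2 scale. For CCN2 it was 0.18 log2 units with CHF and 0.37 without, a difference that did not pass correction over the 10 members (p = 0.0307, adjusted p = 0.307, permutation within sex). Without CAV614 and CAV1047 the adjusted p was 0.114. The other 9 members had adjusted p-values of 0.748 or more. CCN2 ran from 229 to 605 CPM in females without CHF and from 282 to 457 CPM in females with it, while in males it ran from 374 to 743 CPM and from 370 to 717 CPM.

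Several members varied together from dog to dog. With the means of the 4 groups removed, 18 of the 45 pairs of members were related at an adjusted permutation p under 0.1, and all 18 relations were positive. The share of related pairs among all features was not counted, so this number cannot be set against it. With Spearman's rho 17 pairs passed, all of them among the 18, and the pair lost was SPARC with CCN1. THBS1 and SPARC were the closest pair (Pearson r = 0.76, Spearman's rho = 0.74, n = 34), each with a permutation p of 1e-05, the smallest that 100000 permutations can give, and an adjusted p of 0.000225. Their r was 0.71 without the 2 dogs farthest from the median of SPARC, 0.78 within the 10y-noCHF dogs and 0.76 within the 10y-MMVD-CHF dogs.

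POSTN was related to THBS1 (r = 0.71, rho = 0.68, adjusted permutation p = 0.000225 and 0.00135) and to TNC (r = 0.66, rho = 0.74, adjusted p = 0.000225 for both). Without the 2 farthest dogs r was 0.59 and 0.64, and within the statuses it ran from 0.63 to 0.72 for these 2 pairs. TNC was also related to SPARC (r = 0.67, rho = 0.59, adjusted p = 0.000225 and 0.00306) and to THBS2 (r = 0.67, rho = 0.59, adjusted p = 0.0009 and 0.00427). THBS1, CCN1 and CCN2, all known as rapidly induced genes, were related in each of their pairs. THBS1 with CCN1 had r = 0.68 (rho = 0.62, adjusted p = 0.00072 and 0.00306), THBS1 with CCN2 had r = 0.62 (rho = 0.58, adjusted p = 0.0009 and 0.00341) and CCN1 with CCN2 had r = 0.62 (rho = 0.59, adjusted p = 0.00219 and 0.00323). Without the 2 farthest dogs these were 0.69, 0.59 and 0.51, and within the statuses they ran from 0.61 to 0.75. CCN1 was also related to POSTN (r = 0.60, rho = 0.53, adjusted p = 0.00333 and 0.0111, r without the 2 farthest dogs 0.51, and 0.55 and 0.67 within the statuses). CCN2 was related to SPARC (r = 0.54, rho = 0.58, adjusted p = 0.00855 and 0.00635, 0.48 without the 2 farthest dogs), with r = 0.67 within the 10y-noCHF dogs and 0.27 within the 10y-MMVD-CHF dogs.

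THBS4 was related to none of the other 9 members, with r between −0.25 and 0.20. CCN5 was related to THBS2 alone (r = 0.55, rho = 0.54, adjusted permutation p = 0.00491 and 0.00671, r without the 2 farthest dogs 0.55, 0.64 within 10y-noCHF and 0.46 within 10y-MMVD-CHF). TNXB was related to THBS2 alone (r = 0.41, rho = 0.45, adjusted p = 0.0643 and 0.0412), and this relation rests on a few dogs: r was 0.28 without the 2 farthest dogs and 0.32 without CAV614 and CAV1047. It was 0.24 within the 10y-noCHF dogs and 0.56 within the 10y-MMVD-CHF dogs. TNC and TNXB, both tenascins, were not related at the threshold (r = 0.32, adjusted p = 0.211).

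**Figure D4:**
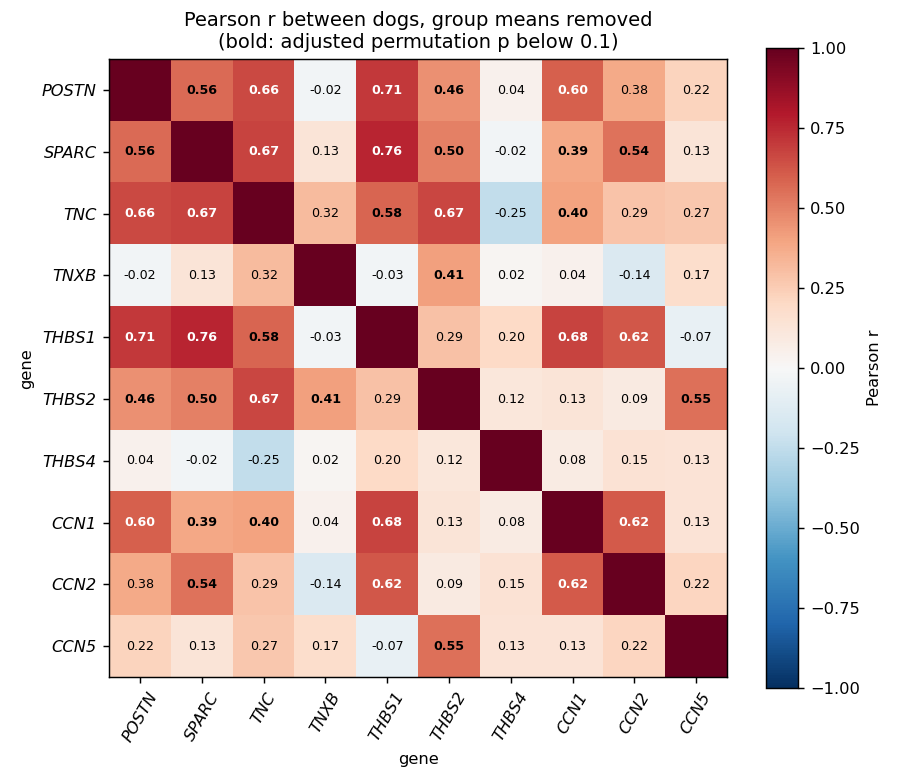
Pearson r between each pair of genes over the 34 dogs after removal of the 4 group means, on a colour scale from −1 (blue) to 1 (red), with the 18 pairs at an adjusted permutation p under 0.1 in bold. POSTN, SPARC, TNC and THBS1 form a block of positive values, of which CCN2 is related to SPARC and THBS1, and the THBS4 row stays between −0.25 and 0.20. CCN1 is related to all 4 of the block, but less closely to SPARC (r = 0.39, adjusted p = 0.0881) and TNC (r = 0.40, adjusted p = 0.0643). Both of these pairs were lost within each status and with the cardiomyocyte marker mean removed. SPARC with CCN1 was also lost without the 2 farthest dogs.

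Part of this common variation moved with the content of heart muscle RNA. The cardiomyocyte marker mean (log2 CPM, 19 genes) ran from −0.64 to 10.45 over the dogs and did not differ by CHF status at the threshold (difference 0.46, adjusted p = 0.782 over 8 marker lists, permutation within sex). With this mean added to the edgeR model, 6 of the 10 members had a negative slope at an FDR under 0.1, namely TNC, THBS2, POSTN, THBS1, SPARC and CCN1. Negative slopes were called for 18.4% of all features and slopes of either sign for 37.3%. TNC fell by 0.12 log2 units for each log2 unit of the marker mean (SE 0.03, FDR 0.000614) and THBS2 by 0.10 (SE 0.03, FDR 0.0101). POSTN fell by 0.08 (FDR 0.00332), THBS1 by 0.07 (FDR 0.0397), SPARC by 0.06 (FDR 0.0122) and CCN1 by 0.05 (FDR 0.0449). The calls of THBS1 (FDR 0.101) and CCN1 (FDR 0.119) were lost without CAV614, and 4 calls were left without CAV614 and CAV1047. TNXB, CCN2 and CCN5 had negative slopes that did not pass (FDR 0.507, 0.464 and 0.198), and THBS4 had the only positive one (0.03, FDR 0.472).

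As correlations with the group means removed, TNC and the marker mean had r = −0.61 and rho = −0.66 (adjusted permutation p = 0.00229 and 0.00207 over 120 relations of members with lists). The r was −0.67 without the 2 dogs farthest from the median of the marker mean, −0.69 within the 10y-noCHF dogs and −0.51 within the 10y-MMVD-CHF dogs. For POSTN r was −0.58 and rho −0.70 (adjusted p = 0.00168 and 0.0003), with −0.62 without the 2 dogs and −0.58 and −0.60 within the statuses. With the marker mean removed by regression, 13 of the 18 related pairs of members were still called. THBS1 and SPARC then had r = 0.70, and the pairs lost were POSTN with SPARC, POSTN with THBS2, SPARC with THBS2, SPARC with CCN1 and TNC with CCN1. The CHF difference of TNXB was little changed by the marker mean in the model (log2 fold change −0.33, FDR 0.350, edgeR, against −0.34 and FDR 0.428 without it) and was called in neither fit.

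**Figure D5:**
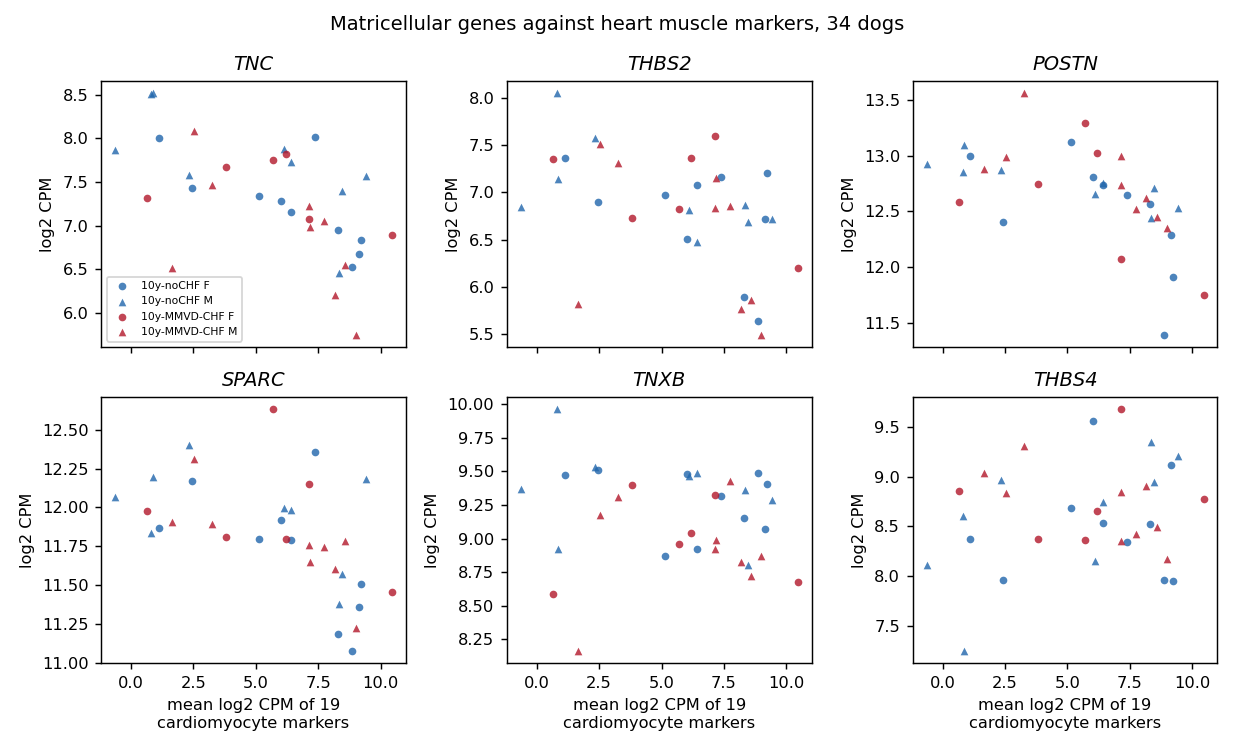
Each panel plots the log2 CPM of a gene against the mean log2 CPM of 19 cardiomyocyte markers, with a point per dog, status by colour and sex by shape. TNC, THBS2, POSTN and SPARC lie lower in dogs with more heart muscle RNA, while TNXB and THBS4 show no slope that passed the test.

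The levels of the members were also set beside those of matrix and cell type lists, none of which holds a member. SPARC followed the mean of 12 genes of collagens and their partners most closely of all (r = 0.89, rho = 0.84, adjusted permutation p = 0.00024 and 0.0003, r without the 2 farthest dogs 0.86, and 0.91 and 0.86 within the statuses). THBS2 followed the valve interstitial cell markers (r = 0.84, rho = 0.81, adjusted p = 0.00024 and 0.0003, 0.82 without the 2 farthest dogs, 0.82 and 0.88 within the statuses). These lists share COL1A1, COL1A2, COL3A1 and DCN. Neither relation was particular to the gene named, and 46 of the 120 relations of members with lists had an adjusted permutation p under 0.1. The share of all features related to these lists by this test was not counted. The interstitial cell markers also passed with SPARC (r = 0.73), TNC (0.72), POSTN (0.48), TNXB (0.45) and THBS1 (0.44). The collagen list also passed with TNC (0.75), THBS2 (0.72), THBS1 (0.67), POSTN (0.56), CCN2 (0.44) and TNXB (0.43). CCN5 was related to the valve interstitial cell markers too (r = 0.60, rho = 0.59, adjusted p = 0.00397 and 0.00408, 0.52 without the 2 farthest dogs, 0.67 and 0.51 within the statuses). TNXB had a negative relation with the red blood cell markers (r = −0.58, rho = −0.45, adjusted p = 0.0136 and 0.0461). Its r was −0.34 without the 2 farthest dogs, −0.25 within the 10y-noCHF dogs and −0.78 within the 10y-MMVD-CHF dogs, the group of CAV614. That list is near the detection limit: 4 of its 7 genes were tested, and AHSP was at 0 in 20 dogs and HBM in 24.

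Of the members, CCN1 was related to the immediate-early genes, the transcription factors and phosphatases that cells induce within minutes of a stimulus. In the edgeR model the slope of CCN1 was 0.51 log2 units per log2 unit of their mean over 11 genes (SE 0.14, p = 0.00117), and it did not pass correction (FDR 0.498). It was the only member with an unadjusted p under 0.05, against 2.88% of all features, and slopes at an FDR under 0.1 were found for 0 of the 10 members and 0.123% of features. As a correlation r was 0.56 and rho 0.60 (adjusted permutation p = 0.0103 and 0.003 over the 120 relations), with 0.58 without the 2 farthest dogs and 0.64 and 0.43 within the statuses. The immediate-early mean was lower with CHF by 0.30 log2 units (p = 0.0346, adjusted p = 0.276 over 8 lists, permutation within sex). FOSB was the only gene of that list that passed over all features, with a log2 fold change of −1.52 (FDR 0.0289, edgeR). ATF3 (−0.81), DUSP1 (−0.37) and NR4A1 (−0.42) had unadjusted p-values under 0.05. Of all features 0.118% passed correction, and 3.51% were lower at an unadjusted p under 0.05. With that mean in the model, the CHF value of CCN1, which was not called in either fit, changed from −0.14 to 0.02. These values were not compared by a test, and the part of the immediate-early genes in the CHF value of CCN1 was not tested.

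The likeness of the members to single genes was described in the same way. The feature most like SPARC over the 34 dogs, by Spearman's rho with group means removed, was COL1A1, a chain of type I collagen (0.90), followed by LTBP2 (0.90) and MYO1D (0.89). POSTN was most like PLOD2, a lysyl hydroxylase of collagen (0.86), SLC41A2 (0.84) and SEC24D, a part of the vesicle coat that exports procollagen (0.83). THBS2 was most like FBLN7 (0.86), MPPED2 (0.85) and DCN, which encodes the collagen-binding proteoglycan decorin (0.85).

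THBS1 was most like WWTR1, which encodes the coactivator TAZ (0.88), UBE2J1 (0.88) and PRRC1 (0.87). With the mean of 20 YAP/TAZ target genes other than CCN1 and CCN2, THBS1 had r = −0.41 and CCN1 −0.39 (adjusted permutation p = 0.0494 and 0.0667). Negative relations with this list were not particular to these genes. The r was −0.58 for TNC, −0.54 for POSTN, −0.46 for SPARC and −0.45 for THBS2 (adjusted permutation p = 0.00849, 0.00147, 0.0331 and 0.0423). THBS4 had the only positive r (0.18), which did not pass. In that list 7 genes fell and 3 rose with the cardiomyocyte marker mean at an FDR under 0.1 in edgeR, ANKRD1 by 0.96 log2 units per log2 unit. Their part in these relations was not tested. TNC was most like PNMA6E and PNMA6F, which had the same rho (0.86), and NECTIN1 (0.86). TNXB was most like PCSK6 (0.76), CAMK1D (0.74) and MACROD2 (0.74), and CCN5 was most like CENPP (0.79), ASPN, the matrix proteoglycan asporin (0.75), and TPC3 (0.74). CCN2 was most like SYVN1 (0.71), INHBB (0.67) and PMEPA1, a target and inhibitor of TGFβ signalling (0.67). CCN1 was most like SLC45A3 (0.65), the immediate-early gene IER2 (0.65) and PROS1 (0.65). THBS4 had the weakest likeness to its nearest features, RPUSD2 (0.62), EBF3 (0.61) and ASIC2 (0.59). These likenesses to single features are descriptions over at least 16155 candidate features for each gene, and say nothing of shared function. Features that overlap the member were left out, but overlap among the named features was not examined. Features named for the same member may therefore share reads.

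Other matricellular genes, their receptors and their matrix partners gave no call either. Of 16 further matricellular genes 9 had lower and 7 higher fitted values in the dogs with CHF. Their median was −0.11 on the log2 scale, against 0.01 for all features. Of all features 3.51% were lower at an unadjusted p under 0.05, and of these 16 genes 3 were. These were THBS3 (−0.38, p = 0.00434, FDR 0.470, edgeR), a thrombospondin of cartilage and bone, TGFBI (−0.30, p = 0.0404), a relative of periostin, and CCN6 (−0.72, p = 0.0216), which was near the detection limit at 0.209 to 3.53 CPM. THBS3 had a mean of 178 ± 45.6 CPM without CHF (SD, n = 19) and 138 ± 35.5 CPM with it (n = 15). Of 13 receptors, among them integrin subunits, CD36, CD47 and syndecan 4, 0 reached an unadjusted p under 0.05 and 0 passed correction in edgeR, and their median was 0.05. The 12 genes of collagens and partners were split evenly, 6 lower and 6 higher, with a median of −0.01 and 0 at an unadjusted p under 0.05. Of 20 YAP/TAZ target genes other than CCN1 and CCN2, 14 had lower and 6 higher values, with a median of −0.08. ASAP1 (−0.19, p = 0.0193) and NT5E (−0.37, p = 0.0177) were lower at an unadjusted p under 0.05, as were 3.51% of all features. None of the 20 passed correction.

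The markers of other cell types gave no call by status. Their list means differed by −0.10 log2 units for valve interstitial cells, 0.01 for endothelium, −0.13 for smooth muscle, 0.20 for macrophages, 0.14 for red blood cells and −0.14 for tendon and chordae (adjusted p = 0.638 or more, permutation within sex). Single markers at an unadjusted p under 0.05 were MYL2 of cardiomyocytes (−2.47), TEK of endothelium (0.28), MYH11 of smooth muscle (−0.67), CD14 of macrophages (0.45) and ALAS2 of red blood cells (0.88). None of these 5 passed correction over all features, of which 6.31% had an unadjusted p under 0.05. MYL2 went against its list, in which 17 of the 19 markers had higher fitted values with CHF and 2 had lower ones (median 0.20). Over all dogs MYL2 had a median of 1.27 CPM and a highest value of 538 CPM. ALAS2 had a median of 2.31 CPM and a highest value of 37.6 CPM.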

How the data were processed

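Poly-A RNA from mitral valves was sequenced. Reads were aligned to canFam4 by STAR, and the authors deposited the raw counts that featureCounts 2.0.3 gave. Its command counted both reads of a pair, used no strand and gave a read to every feature it overlapped (71% of counts above 0 were even). Of 23768 features, 2165 are canine RefSeq exons and 21603 are spans of aligned human transcripts. The exon feature was used where a member had both (2 genes). A further 1 count column belongs to no sample and was not used.

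Features with at least 100 counts in all (19568) were tested with edgeR 4.0.16 (quasi-likelihood, TMM, sex and CHF status, R 4.3.3), with Benjamini-Hochberg FDR over all features and a threshold of 0.1. CPM are TMM-normalised counts per 1000000 counts, and the log2 scale used a prior count of 2. RPKM divides CPM by the deposited feature length. Residual correlations and group differences were tested with 100000 permutations, two-sided (numpy 2.4.6). Pairs related were counted at an adjusted p under 0.1. Alternatives included DESeq2 1.42.0 and limma 3.58.1 voom. The tests were checked on simulated data. Genes beside the members were named where a gene of the lists passed the FDR or had an unadjusted p under 0.05 (at most 6 per list), overlapped a member, or was among the 3 features most like a member. The members, lists and tests were chosen with earlier results of these data known. Each dog gave 1 library, with 46185256 to 82361245 counts. Depth did not limit the members, which had at least 384 counts in every dog, and the spread between dogs set the precision.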

Additional observations from a re-analysis of the deposited data

Results flagged for a closer look

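The THBS4 value of CAV1876, a 10y-MMVD-CHF female, stood apart from its group. It was 819 CPM, and the next of the 6 dogs had 463 CPM. The gap came to 0.627 of the range of the group on the log2 scale, just over the 95% critical value of Dixon's test for 6 values. This was 1 of 40 such tests (10 genes in 4 groups), of which chance alone gives about 2.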

How the results depend on the processing

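The number of members called with CHF was 0 in every alternative run, which were DESeq2, voom, robust dispersion, RLE and upper-quartile normalization, filterByExpr, no filter, no sex term, a cardiomyocyte or immediate-early covariate, the span features, an FDR threshold of 0.05, leaving out CAV614 and CAV1047 and leaving out each of the 34 dogs (0 to 0 members). The fitted direction of SPARC turned to −0.041 with voom, −0.0325 with the immediate-early covariate and ran between −0.0671 and 0.0537 when each dog was left out, and that of CCN1 turned to 0.0158 with the immediate-early covariate. The interaction of CCN1 turned from 0.06 to −0.11 without CAV614 and CAV1047. All of these values lay within their error of 0. The TNXA call kept its direction in every alternative, with log2 fold changes from −0.51 to −0.44 when each dog was left out and from −0.49 to −0.41 in the others, and lost the threshold with the immediate-early covariate (FDR 0.234), voom (0.116), no sex term (0.105) and at 0.05, while DESeq2 gave 0.00771. The cause was not tested. The related pairs numbered 18, and 12 within the 10y-noCHF dogs, 8 within the 10y-MMVD-CHF dogs (fewer dogs in each) and 16 without the 2 farthest dogs of each pair. The median of TNC moved to 1.84 RPKM and that of THBS2 to 5.84 RPKM over the span features, since their length includes introns. No paired analysis was possible because no replicate number is shared between the groups.

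Features counted over introns, without strand and on overlapping genes limit what a level means for 8 of the 10 genes. Stage, age and medication were not paired with the dogs, and differences smaller than the intervals given could not be detected.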
